A study of Rattus norvegicus with 9 samples.

Results

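Fatty acid and triglyceride synthesis genes were followed in rat liver over 9 one-colour oligonucleotide arrays. The genes were taken from a list of 31 that spans the supply of NADPH and acetyl-CoA, the building, elongation, desaturation and activation of the acyl chain, the assembly of glycerolipids and the regulators of these steps. Of the 31 genes, 29 were found by their gene symbol among the 10411 named genes of the arrays, and they had 38 probe sets. Elovl2 and Lpin2 were not matched by symbol and were not analysed here. Of the 38 probe sets, 37 were tested, and 35 lay on all 9 arrays above the floor of 64.3, the 20th percentile of all signals, below which values were not told apart. The probe set left out is a dim one of Tkt whose signal was at the floor on all 9 arrays, and the other Tkt probe set was tested. 8 genes had several probe sets, and for counts of genes the brightest tested probe set stood for each of them.

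Total RNA of whole liver made up 3 samples in each of 3 groups, named Burn-CLP, Sham-CLP and Sham-Sham in the titles. As the titles read, Burn-CLP and Sham-CLP share the CLP step, Sham-CLP and Sham-Sham have a sham step in place of the burn, and Sham-Sham is called the control. The labels give no strain, sex, age, dose or time after either step and do not spell out CLP. Nothing in them ties an array to an animal of its own, so the p-values reflect the variation among these samples alone, and that variation may be technical.

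All signals below are the deposited linear intensities after quantile normalization, and log2 differences carry their standard error from limma. A difference was called when its Benjamini-Hochberg adjusted p over all 13535 tested probe sets was under 0.05. The deposited array medians lay between 205 and 268.1. Sham-Sham 1 was unlike the rest, correlating on average at 0.907 with them, against 0.937 to 0.958 for the other 8 arrays. Summed signals of 7 measured hepatocyte markers, among them Alb and Apob, spanned 147180 to 155806.2 in Burn-CLP, 145282 to 155329.3 in Sham-CLP and 135344.1 to 148090.6 in Sham-Sham, as the label of liver asks. In whole tissue, fewer cells of a type and less RNA per cell cannot be told apart.

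As background, liver makes fatty acids from citrate that leaves the mitochondria and is split into acetyl-CoA. Acetyl-CoA is carboxylated to malonyl-CoA and built into palmitate with reducing power from NADPH, and the chain is then elongated, desaturated and esterified onto a glycerol backbone. Insulin and dietary carbohydrate drive the pathway in liver through the transcription factors encoded by Srebf1 and Mlxipl.

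Burn-CLP had the lowest group mean for 19 of 29 genes, against 34.1% of all named genes. Sham-CLP had the highest mean for 14 of 29 genes, against 26.3% of all named genes. In 10 genes the means ran Burn-CLP, Sham-CLP, Sham-Sham from low to high: Dgat2, Elovl5, Fads2, Gpd1, Idh1, Me1, Mlxipl, Scd, Taldo1 and Tkt. In 9 genes they ran Burn-CLP, Sham-Sham, Sham-CLP from low to high: Acacb, Acly, Acsl3, Elovl6, Fads1, Fasn, Gpam, Slc25a1 and Srebf1. These orders are descriptions of group means, and the tests follow.

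**Figure D1:**
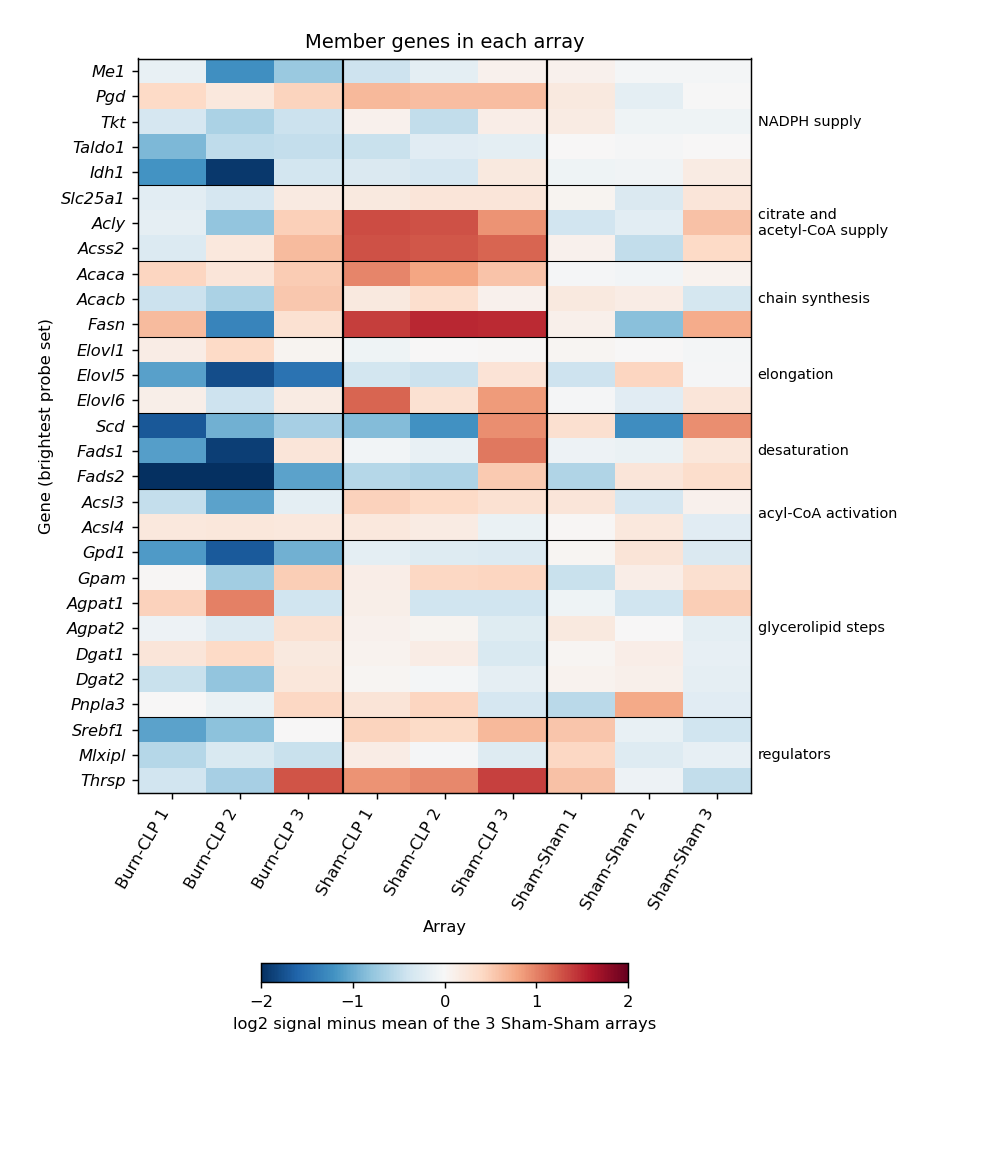
Signal of the 29 genes, by role, each as its brightest tested probe set, on the 9 arrays, as the log2 difference from the mean of the 3 Sham-Sham arrays (colour scale from -2 to 2). Fads2 in Burn-CLP 1 and Burn-CLP 2 lies beyond the low end of the scale, and Burn-CLP 3 is the highest array of its group for 20 of 29 genes.

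Between Burn-CLP and Sham-Sham, 1 member probe set passed the test, that of Gpd1, which fell. Across all tested probe sets, 0.746% were called in this comparison, 0.421% as lower. The 3 Burn-CLP arrays did not overlap the 3 Sham-Sham arrays in 12 of 37 member probe sets (32.4%), 4 higher and 8 lower, while 21.5% of all tested probe sets did not overlap, 11% higher and 10.5% lower. An unadjusted p under 0.05 was reached by 11 of 37, 2 higher and 9 lower, against 19.9% of all tested probe sets, 10% higher and 9.85% lower. The median log2 difference of the 29 genes was -0.16, against 0.004 for all named genes, and 20 of the 29 were lower. Without Burn-CLP 2 the median was 0.034 and without Burn-CLP 3 it was -0.482, so single arrays moved it. Without Sham-Sham 1 no member probe set was called, beside 0.217% of all tested probe sets, 14 did not overlap, beside 30.8% of all, and the median was -0.238.

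Between Sham-CLP and Sham-Sham, none of the 37 member probe sets was called by limma, where 0.0591% of all tested probe sets were, 0.0443% as higher. An unadjusted p under 0.05 was reached by 11 of 37, all of them higher, against 11.7% of all tested probe sets, 5.83% higher and 5.9% lower. The groups did not overlap in 13 member probe sets (35.1%), 12 higher and 1 lower, where 16.7% of all tested probe sets did not overlap, 8.1% higher and 8.65% lower. The median over the 29 genes was 0.08, against 0 for all named genes, with 15 genes higher and 14 lower.

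Between Burn-CLP and Sham-CLP, again no member probe set was called by limma, where 0.0148% of all tested probe sets were. An unadjusted p under 0.05 was reached by 16 of 37 (43.2%), all lower in Burn-CLP, against 9.09% of all tested probe sets, 3.9% higher and 5.19% lower. The groups did not overlap in 20 member probe sets (54.1%), 3 higher and 17 lower, where 18.8% of all tested probe sets did not overlap, 9.61% higher and 9.22% lower. Of the 29 genes 24 were lower in Burn-CLP (82.8%), where 48.1% of all named genes were. The median log2 difference was -0.40, against 0.016 for all named genes, but -0.666 without Burn-CLP 3 and -0.691 over all tested probe sets of the genes in place of the brightest of each. These 3 comparisons share their arrays pairwise, so their counts are not independent of each other. The moderated F test over the 3 groups called no member, against 0.148% of all tested probe sets, and 16 of 37 had an unadjusted p under 0.05, against 16% of all tested probe sets.

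**Figure D2:**
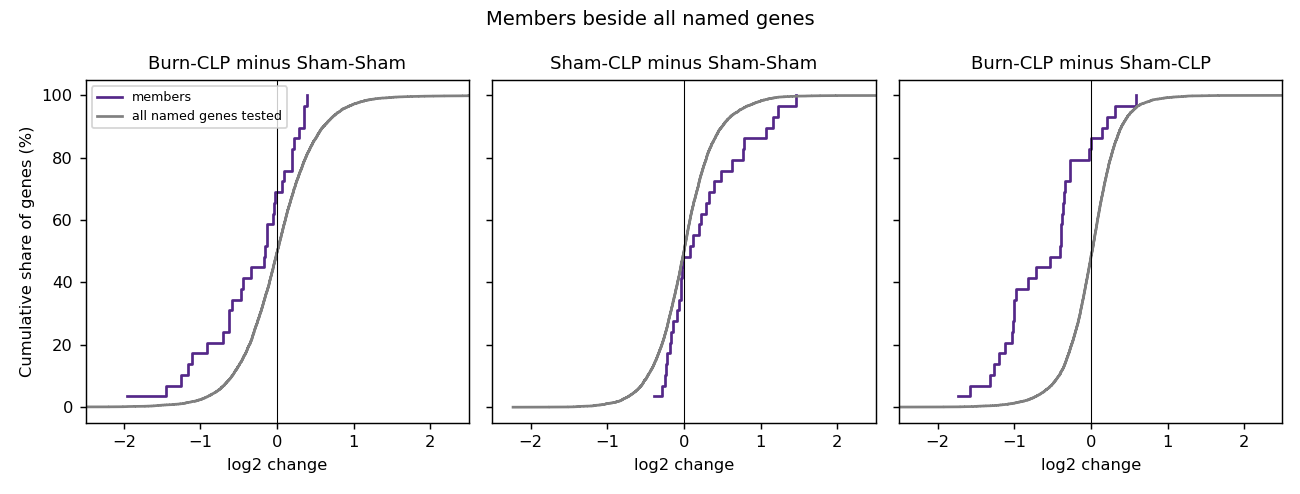
Cumulative percent of genes (vertical axis) at or below a given log2 difference (horizontal axis) for the 29 genes of fatty acid and triglyceride synthesis and for all 9339 tested named genes, in each comparison. In Burn-CLP against Sham-CLP the curve of the 29 genes lies to the left of the other, with medians of -0.40 and 0.016.

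The arrays within Burn-CLP differed from each other across these genes. Burn-CLP 3 had the highest signal of its group for 20 of 29 genes, where it was highest for 35.3% of all named genes, and Burn-CLP 2 had the lowest for 20 of 29, where it was lowest for 33.9% of all named genes. Leaving out Burn-CLP 3 raised the number of member probe sets that did not overlap between Burn-CLP and Sham-CLP to 29, beside 35.9% of all tested probe sets. It raised the number between Burn-CLP and Sham-Sham to 20, beside 34.7% of all tested probe sets. Smaller groups overlap less easily, so such counts tend to rise whichever array of the compared groups is left out. With any 1 array left out they lay between 20 and 29 and between 12 and 20 in these comparisons. The counts without Burn-CLP 3 are the upper ends of these ranges, which also take in arrays outside the compared groups. Whether the rise sets Burn-CLP 3 apart was not tested.

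The upstream sequences of the genes were searched for a sterol regulatory element, an E-box and the CCAAT motif, and those shown are the promoter of Elovl5, the member found with an E-box, and the stretch next to the start of Acly, Acss2, Acacb and Acsl3, where a CCAAT motif lies at nearly the same distance. The 4 short stretches were chosen after their matches were seen. All come from RefSeq on the GRCr8 build and read 5′ to 3′ on the strand of the gene, up to the last base before its start. Capitals mark a match to CACGTG, the E-box, or to CCAAT, the motif of the factor NF-Y, with ATTGG as CCAAT on the other strand.
Elovl5: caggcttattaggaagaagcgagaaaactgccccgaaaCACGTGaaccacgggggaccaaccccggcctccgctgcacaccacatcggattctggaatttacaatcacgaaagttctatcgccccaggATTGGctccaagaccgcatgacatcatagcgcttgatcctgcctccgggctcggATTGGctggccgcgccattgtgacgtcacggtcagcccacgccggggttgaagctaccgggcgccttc
Acly: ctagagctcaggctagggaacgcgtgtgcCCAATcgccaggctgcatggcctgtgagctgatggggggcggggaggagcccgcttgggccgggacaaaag
Acss2: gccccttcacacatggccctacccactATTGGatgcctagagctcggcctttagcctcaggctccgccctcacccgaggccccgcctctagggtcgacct
Acacb: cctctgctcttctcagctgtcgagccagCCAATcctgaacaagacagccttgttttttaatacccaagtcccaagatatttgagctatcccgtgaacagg
Acsl3: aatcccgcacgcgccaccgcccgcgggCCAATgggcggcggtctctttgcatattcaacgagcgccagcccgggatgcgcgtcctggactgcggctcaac

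The Elovl5 sequence is the 250 bases at chr8:87670914-87671163 on the plus strand, and the others are 100 bases each. They lie at chr10:85963632-85963731 on the minus strand for Acly, chr3:164464603-164464702 on the plus strand for Acss2, chr12:48138215-48138314 on the minus strand for Acacb and chr9:87563501-87563600 on the plus strand for Acsl3. The marked CCAAT begins 71 bases upstream of the start in Acly, 72 in Acacb, and 73 in both Acss2 and Acsl3. Upstream sequence was at hand for 23 of the 29 genes, and Acaca, Fasn, Elovl6, Gpd1, Dgat1 and Dgat2 were not matched. On either strand of the 250 bases, CCAAT was found in 15 of 23 (65.2%), against 35.1% of 8567 promoters of genes tested on these arrays. The sterol regulatory element TCACNCCAC was in 0 of 23, against 1.05%, and CACGTG was in 1 of 23 (4.35%), against 7.8%. No marked match overlaps another, and a match describes only the letters of this window.

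Of the 5 genes grouped under NADPH supply, 4 had lower signals in Burn-CLP than in Sham-Sham on every array, beside 11.1% of all named genes. None passed the test. The group takes in pentose phosphate enzymes that do not make NADPH themselves, those of Taldo1 and Tkt. Of 7 other genes of this role outside the members, 2 were lower without overlap and 1 was higher. Idh1 encodes the cytosolic isocitrate dehydrogenase, which makes NADPH. Its signal was 3733, 2259.9 and 6679 in Burn-CLP, 7000.5, 6784 and 9786 in Sham-CLP and 8047, 8165 and 9588 in Sham-Sham. Every Burn-CLP array lay below every array of the other groups, with Burn-CLP 3 close to the lowest Sham-CLP array. The log2 difference was -1.16 ± 0.35 against Sham-Sham (adjusted p = 0.133) and -1.01 ± 0.35 against Sham-CLP (adjusted p = 0.437). Without Burn-CLP 3, the highest of its group, the comparison with Sham-Sham passed (adjusted p = 0.0369). In that fit 1.65% of all tested probe sets were called, against 0.746% with all arrays.

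Taldo1, the transaldolase of the pentose phosphate pathway, had signals of 624, 822 and 838 in Burn-CLP, 855, 998 and 1021 in Sham-CLP and 1175, 1153 and 1174 in Sham-Sham. No pair of groups overlapped, and the groups stood in the order Burn-CLP, Sham-CLP, Sham-Sham from low to high. The difference of Burn-CLP from Sham-Sham was -0.63 ± 0.17 on the log2 scale (adjusted p = 0.111). Transketolase, from Tkt, works beside it in the pathway and ranged from 907 to 1113 in Burn-CLP, from 1000.1 to 1535 in Sham-CLP and from 1320.3 to 1579.8 in Sham-Sham. Burn-CLP overlapped Sham-CLP but not Sham-Sham, from which it differed by -0.46 ± 0.21 on the log2 scale (adjusted p = 0.25). Me1, the cytosolic malic enzyme, had 905, 429 and 600.5 in Burn-CLP, 754, 883 and 1075 in Sham-CLP and 1070.2, 979 and 975 in Sham-Sham with its brighter probe set. Its Burn-CLP arrays differed from Sham-Sham by -0.71 ± 0.26 (adjusted p = 0.192) without overlap, and by -0.42 ± 0.36 (adjusted p = 0.531), with overlap, in the dimmer probe set.

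Pgd encodes 6-phosphogluconate dehydrogenase, an NADPH-making step of the same pathway, and ran the other way. Its signals were 1142, 1003 and 1170.0 in Burn-CLP, 1352, 1320.3 and 1323 in Sham-CLP and 989, 755 and 862 in Sham-Sham. Sham-CLP was above both other groups on every array, by 0.62 ± 0.16 over Sham-Sham on the log2 scale (adjusted p = 0.292), and Burn-CLP lay between them, above Sham-Sham by 0.35 ± 0.16 (adjusted p = 0.269).

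The genes of citrate export and acetyl-CoA supply had their highest mean in Sham-CLP, with a median log2 difference of 1.16 from Sham-Sham over 3 genes. Acss2, the cytosolic synthetase that makes acetyl-CoA from acetate, had signals of 1599, 2234 and 2981 in Burn-CLP, 4657, 4545 and 4290.5 in Sham-CLP and 2044, 1365 and 2547 in Sham-Sham. All 3 Sham-CLP arrays stood above the other 6, among which Burn-CLP and Sham-Sham overlapped. Sham-CLP was 2.34-fold above Sham-Sham (log2 1.23 ± 0.28, adjusted p = 0.243), Burn-CLP was 2.04-fold below Sham-CLP (-1.03 ± 0.28, adjusted p = 0.357), and Burn-CLP differed from Sham-Sham by 0.19 ± 0.28 (adjusted p = 0.724). The Sham-CLP difference from Sham-Sham passed without Sham-Sham 3, the highest of its group (adjusted p = 0.042). In that fit 2.58% of all tested probe sets were called, against 0.0591% with all arrays.

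Acly, the ATP citrate lyase, also stood highest in Sham-CLP. Its signals were 1159.5, 759.9 and 1833 in Burn-CLP, 3238, 3179 and 2448 in Sham-CLP and 1006, 1133 and 1977 in Sham-Sham, with Sham-CLP again above the other 6 arrays. The log2 difference was 1.16 ± 0.35 for Sham-CLP against Sham-Sham (adjusted p = 0.31), -1.32 ± 0.35 for Burn-CLP against Sham-CLP (adjusted p = 0.355) and -0.16 ± 0.35 for Burn-CLP against Sham-Sham (adjusted p = 0.827). Slc25a1, the mitochondrial citrate carrier, ranged from 1852 to 2631 in Burn-CLP, from 2671 to 2771 in Sham-CLP and from 1911 to 2746 in Sham-Sham. Burn-CLP lay below Sham-CLP on every array, by a log2 difference of -0.35 ± 0.20 (adjusted p = 0.635).

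**Figure D3:**
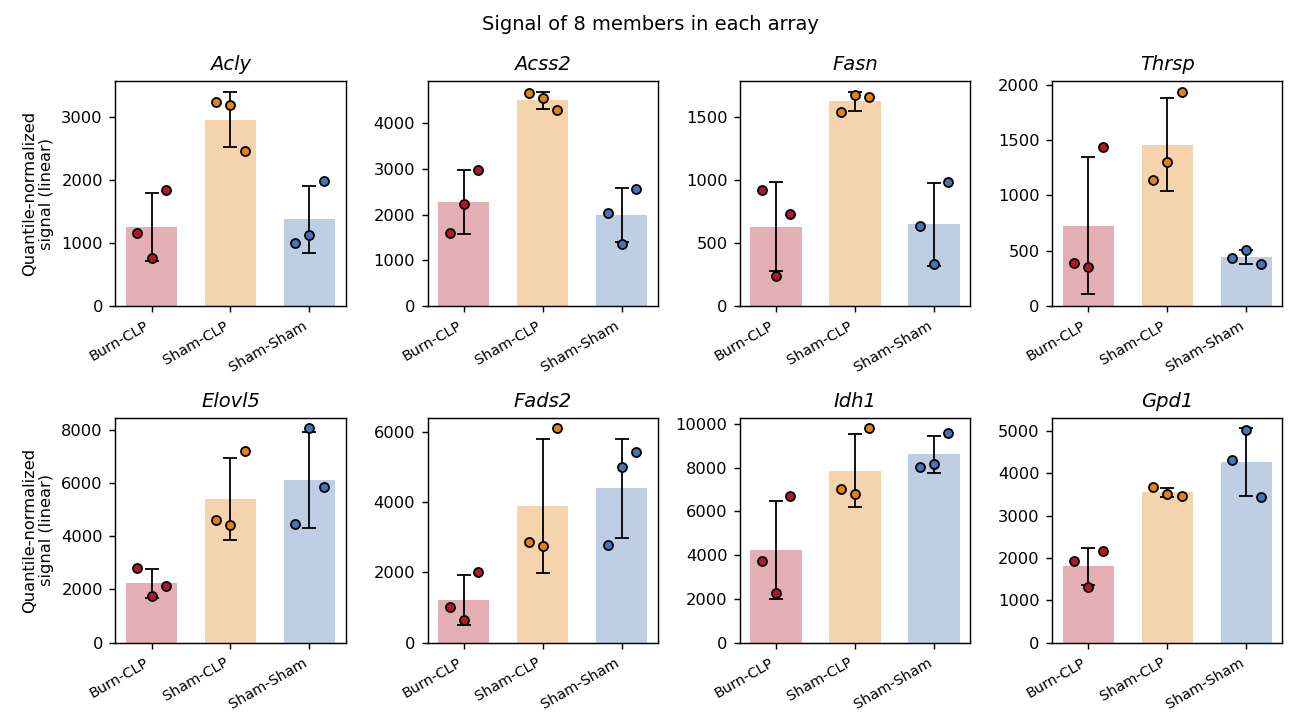
Signal on a linear axis for 8 of the genes on each array, with Burn-CLP left, Sham-CLP in the middle and Sham-Sham right, points for arrays and bars for the mean ± SD of 3 arrays. The 3 Sham-CLP arrays of Acly, Acss2 and Fasn lie above the other 6, while Elovl5, Fads2, Idh1 and Gpd1 have Burn-CLP below both other groups.

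In chain synthesis, the genes for the carboxylase of the cytosol and for the synthase itself were higher in Sham-CLP than in Sham-Sham on every array. Fasn, the fatty acid synthase, had signals of 921, 236 and 731 in Burn-CLP, 1539, 1679 and 1661 in Sham-CLP and 632, 331 and 987 in Sham-Sham with its brighter probe set. It averaged 629.6 ± 354 in Burn-CLP, 1627 ± 76.5 in Sham-CLP and 650.1 ± 328 in Sham-Sham (SD, n = 3 each), and Burn-CLP overlapped Sham-Sham. Sham-CLP was 2.75-fold above Sham-Sham (log2 1.46 ± 0.51, adjusted p = 0.355) and Burn-CLP 3.0-fold below Sham-CLP (-1.58 ± 0.51, adjusted p = 0.43). The dimmer Fasn probe set ran the same way, with 0.71 ± 0.29 (adjusted p = 0.405) and -0.69 ± 0.29 (adjusted p = 0.532) on the log2 scale.

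Acaca encodes the acetyl-CoA carboxylase that makes malonyl-CoA for synthesis. With its brighter probe set, the signals were 953, 833 and 1002 in Burn-CLP, 1393, 1229 and 1055 in Sham-CLP and 698, 681 and 746 in Sham-Sham, and no pair of groups overlapped. Both Burn-CLP (0.39 ± 0.17, adjusted p = 0.244) and Sham-CLP (0.78 ± 0.17, adjusted p = 0.23) were above Sham-Sham on the log2 scale, and Burn-CLP was below Sham-CLP (-0.39 ± 0.17, adjusted p = 0.536). The dimmer Acaca probe set had 484, 265 and 398 in Burn-CLP, 409.5, 433 and 365 in Sham-CLP and 115, 189.6 and 306 in Sham-Sham. In the fit of all arrays it differed from Sham-Sham by 0.98 ± 0.35 in Burn-CLP (adjusted p = 0.175), with overlap. It differed by 1.09 ± 0.35 in Sham-CLP (adjusted p = 0.328), without overlap. Sham-Sham 3 was its highest control array. Without that array both differences passed by limma, at an adjusted p of 0.0459 for Burn-CLP and 0.0482 for Sham-CLP. In that fit 4.8% and 2.58% of all tested probe sets were called in the same comparisons, against 0.746% and 0.0591% with all arrays. Acacb, the carboxylase of the outer mitochondrial membrane, was dim, with 122, 106 and 236 in Burn-CLP, 186, 206 and 172 in Sham-CLP and 188, 181 and 128 in Sham-Sham. Its groups all overlapped, and it differed by -0.17 ± 0.30, 0.20 ± 0.30 and -0.37 ± 0.30 on the log2 scale for Burn-CLP against Sham-Sham, Sham-CLP against Sham-Sham and Burn-CLP against Sham-CLP.

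The elongases differed among themselves. Elovl5, which lengthens polyunsaturated chains, had signals of 2796, 1735 and 2146 in Burn-CLP, 4589.7, 4423 and 7187 in Sham-CLP and 4469.7, 8047 and 5845 in Sham-Sham with its brighter probe set. All 3 Burn-CLP arrays were below the other 6, and the other groups overlapped. Burn-CLP was 2.72-fold below Sham-Sham (log2 -1.45 ± 0.29, adjusted p = 0.0555) and 2.41-fold below Sham-CLP (-1.27 ± 0.29, adjusted p = 0.293). The difference from Sham-Sham passed by limma in 5 of 18 alternative settings, at adjusted p from 0.0183 to 0.0497, and stayed uncalled in 13. In the settings where it passed, 0.975% to 4.8% of all tested probe sets were called. Its dimmer probe set overlapped in all comparisons, with Sham-Sham 1 at 482 and the other Sham-Sham arrays at 2541 and 2700.3, and differed by -0.62 ± 0.61 between Burn-CLP and Sham-Sham. The promoter with the E-box printed above belongs to this gene.

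Elovl6, which takes palmitate to stearate, was dim and stood highest in Sham-CLP, with 112, 77.2 and 116 in Burn-CLP, 230.4, 127 and 186 in Sham-CLP and 102, 88 and 122 in Sham-Sham. Sham-CLP lay above the other 6 arrays, by 0.77 ± 0.26 over Sham-Sham on the log2 scale (adjusted p = 0.344), and Burn-CLP was -0.81 ± 0.26 from Sham-CLP (adjusted p = 0.424). Elovl1, an elongase of very long saturated chains, had its 3 Burn-CLP arrays, from 840.1 to 1072, above those of both other groups, by 0.20 ± 0.16 on the log2 scale over Sham-Sham (adjusted p = 0.502).

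Fads2 had the largest difference of the 29 genes in both comparisons of Burn-CLP, a description of their fitted values. Fads2, the desaturase that opens the polyunsaturated pathway, had signals of 1004, 639 and 2024 in Burn-CLP, 2854, 2749 and 6102 in Sham-CLP and 2790.3, 4996 and 5419 in Sham-Sham. Burn-CLP was below the other groups on every array, 3.87-fold below Sham-Sham (log2 -1.95 ± 0.46, adjusted p = 0.0772) and 3.33-fold below Sham-CLP (-1.73 ± 0.46, adjusted p = 0.357). Burn-CLP 3 was the highest of its group, and without it the difference from Sham-Sham passed (log2 -2.40, adjusted p = 0.0417). Leaving out the Burn-CLP array nearest to Sham-Sham widens the difference by itself. In that fit 1.65% of all tested probe sets were called, against 0.746% with all arrays.

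Fads1, the desaturase that acts later in that pathway, had 1751, 1024 and 4442 in Burn-CLP, 3628, 3404 and 7804 in Sham-CLP and 3504, 3448 and 4434 in Sham-Sham. Burn-CLP 1 and Burn-CLP 2 were below the other 7 arrays, while Burn-CLP 3 overlapped them, and the log2 difference was -0.92 ± 0.50 from Sham-Sham (adjusted p = 0.333) and -1.20 ± 0.50 from Sham-CLP (adjusted p = 0.514). Scd, the desaturase that makes monounsaturated chains, spread widely, from 397 to 805 in Burn-CLP, from 550.4 to 2442 in Sham-CLP and from 539.9 to 2442 in Sham-Sham. The groups overlapped, and Burn-CLP differed from Sham-Sham by -1.11 ± 0.65 on the log2 scale (adjusted p = 0.364). Sham-CLP differed from Sham-Sham by -0.39 ± 0.65 (adjusted p = 0.833).

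Of the ligases that activate fatty acids, Acsl3, found on lipid droplets and the endoplasmic reticulum, had 286, 189.5 and 348 in Burn-CLP, 548, 527 and 494 in Sham-CLP and 472, 316 and 424 in Sham-Sham. Burn-CLP was below Sham-CLP on every array, by -0.97 ± 0.25 on the log2 scale (adjusted p = 0.345), and differed from Sham-Sham by -0.58 ± 0.25 (adjusted p = 0.236), with overlap. Sham-CLP lay above Sham-Sham on every array, by 0.39 ± 0.25 (adjusted p = 0.549). Acsl4, which prefers arachidonate, was bright on all 9 arrays, from 4664 to 6420.3, and differed by 0.22 ± 0.18 between Burn-CLP and Sham-Sham (adjusted p = 0.505).

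Glycerolipid assembly held the single member that passed. Gpd1, the cytosolic glycerol phosphate dehydrogenase that makes the glycerol backbone, had signals of 1929.6, 1314 and 2166 in Burn-CLP, 3676, 3509.9 and 3476 in Sham-CLP and 4325, 5026 and 3434 in Sham-Sham with its brighter probe set. All 3 Burn-CLP arrays lay below the other 6, and the other groups overlapped. Gpd1 averaged 1803 ± 440.0 in Burn-CLP, 3554 ± 107 in Sham-CLP and 4262 ± 798 in Sham-Sham (SD, n = 3 each). It fell 2.39-fold in Burn-CLP against Sham-Sham (log2 -1.25 ± 0.22, adjusted p = 0.0431 by limma), differed by -1.01 ± 0.22 between Burn-CLP and Sham-CLP (adjusted p = 0.284) and by -0.24 ± 0.22 between Sham-CLP and Sham-Sham (adjusted p = 0.668).

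The call was lost when any of 7 single arrays was left out, among them Sham-Sham 1, where the log2 difference was -1.24 (adjusted p = 0.104), and Sham-CLP 2, where the adjusted p was 0.0882. With a floor at the 10th percentile, with no filter and in a fit of those groups only it was lost as well, at adjusted p of 0.0671, 0.0656 and 0.143. It was kept without Sham-Sham 3 (adjusted p = 0.0217) and without Burn-CLP 3 (adjusted p = 0.0356), where 4.8% and 1.65% of all tested probe sets were called. The dimmer Gpd1 probe set had 694, 403 and 795 in Burn-CLP, 1083, 1298 and 1379 in Sham-CLP and 745, 1444 and 1267 in Sham-Sham, and its difference from Sham-Sham, -0.87 ± 0.31, did not pass (adjusted p = 0.18).

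The remaining glycerolipid genes differed little relative to their spread. Gpam, the mitochondrial acyltransferase that adds the first chain, had 459.8, 279 and 636 in Burn-CLP, 497, 602 and 611 in Sham-CLP and 332, 494 and 563 in Sham-Sham. Its groups overlapped, and Burn-CLP differed from Sham-Sham by -0.06 ± 0.31 on the log2 scale (adjusted p = 0.934). Agpat2, an acyltransferase of the next step, ranged from 1197 to 1777 in Burn-CLP, from 1218 to 1544 in Sham-CLP and from 1259.9 to 1658 in Sham-Sham, and differed by -0.03 ± 0.21 (adjusted p = 0.956). Dgat1 and Dgat2 encode the acyltransferases of the last step, which makes triglyceride. Dgat1 had 1316, 1476 and 1282 in Burn-CLP, 1171, 1230.2 and 901 in Sham-CLP and 1146, 1223 and 992 in Sham-Sham, above both other groups on every Burn-CLP array, by 0.28 ± 0.18 over Sham-Sham (adjusted p = 0.41). Dgat2 ranged from 3068 to 6204 over the 9 arrays, overlapped between all groups and differed by -0.34 ± 0.25 (adjusted p = 0.471). Agpat1, another acyltransferase of the step of Agpat2, was dim, with 4 of the 9 arrays at the floor, and differed by 0.36 ± 0.36 (adjusted p = 0.603). Pnpla3, which encodes a lipid droplet protein, was dim too, with 1 array at the floor, and differed by 0.09 ± 0.34 (adjusted p = 0.905).

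Of the regulators, Srebf1 encodes the sterol regulatory element-binding protein that drives the genes of this pathway. With its brighter probe set it had 509, 601 and 1073 in Burn-CLP, 1443, 1381 and 1674 in Sham-CLP and 1563, 959 and 804 in Sham-Sham. Burn-CLP was below Sham-CLP on every array (log2 -1.11 ± 0.32, adjusted p = 0.366) and overlapped Sham-Sham (-0.63 ± 0.32, adjusted p = 0.304). The other Srebf1 probe set differed by -0.72 ± 0.30 between Burn-CLP and Sham-CLP (adjusted p = 0.523), with Burn-CLP 3 at 1325 among the Sham-CLP arrays. Mlxipl, which encodes the carbohydrate response factor, ranged from 281 to 338 in Burn-CLP, from 349.8 to 466 in Sham-CLP and from 351 to 559 in Sham-Sham. Its Burn-CLP arrays were below the other 6, by -0.44 ± 0.22 from Sham-Sham (adjusted p = 0.287) and -0.40 ± 0.22 from Sham-CLP (adjusted p = 0.619).

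Thrsp, a thyroid hormone responsive gene of lipogenic tissue, was measured by 3 probe sets, and Sham-CLP was above Sham-Sham without overlap in each. The dimmest of them, with the smallest p, had 392, 348 and 1438 in Burn-CLP, 1142, 1297 and 1935 in Sham-CLP and 431, 507 and 382 in Sham-Sham. Burn-CLP 3 stood among the Sham-CLP arrays while Burn-CLP 1 and Burn-CLP 2 were near the Sham-Sham arrays. Sham-CLP was 3.25-fold above Sham-Sham (log2 1.70 ± 0.48, adjusted p = 0.306), and Burn-CLP differed from Sham-CLP by -1.29 ± 0.48 (adjusted p = 0.466). The latter passed only in the fit without Burn-CLP 3 (log2 -1.94, adjusted p = 0.0354). In that fit 0.268% of all tested probe sets were called, against 0.0148% with all arrays. The other probe sets differed by 1.21 ± 0.50 and 1.08 ± 0.47 between Sham-CLP and Sham-Sham, with adjusted p of 0.402 and 0.419.

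**Figure D4:**
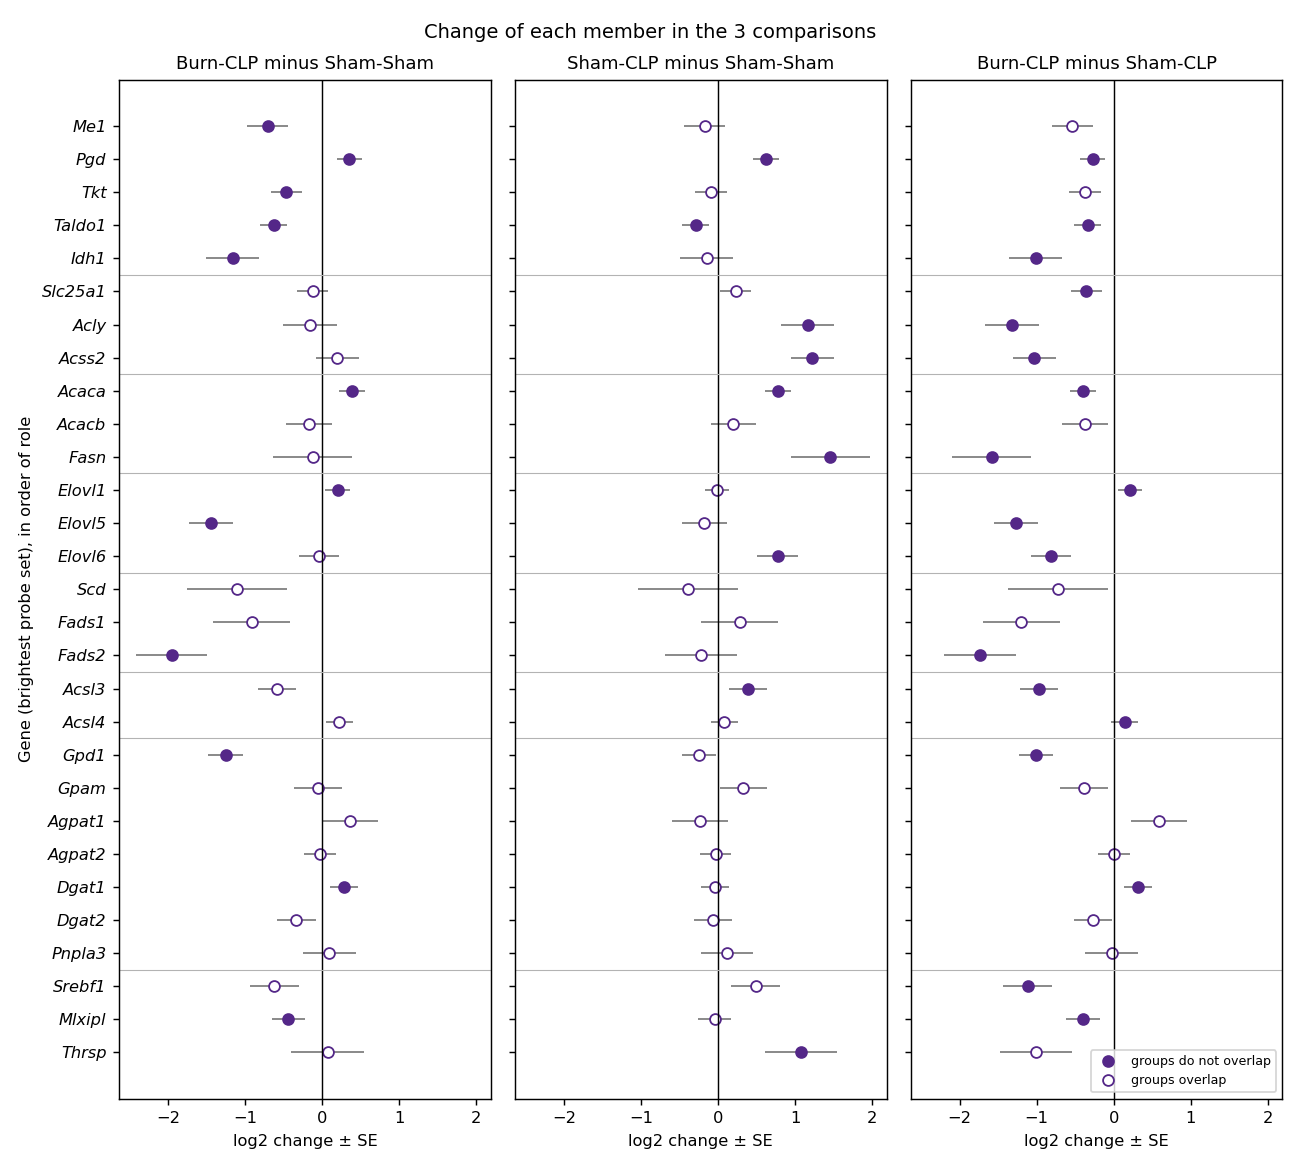
Fitted log2 difference ± SE of the 29 genes by role, each as its brightest tested probe set, for Burn-CLP against Sham-Sham, Sham-CLP against Sham-Sham and Burn-CLP against Sham-CLP. Filled points mark genes whose groups do not overlap, 4 higher and 8 lower in the first comparison, 8 higher and 1 lower in the next, and 3 higher and 15 lower in the last. Among all 9339 tested named genes 11.2% were higher and 11.1% lower without overlap in the first, 8.35% and 8.75% in the next, and 9.87% and 9.58% in the last.

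By role, the median difference between Burn-CLP and Sham-CLP was -1.03 for citrate and acetyl-CoA supply (3 genes), -1.20 for desaturation (3 genes), -1.01 for the regulators (3 genes) and -0.81 for elongation (3 genes). It was -0.42 for activation (2 genes), -0.39 for chain synthesis (3 genes), -0.37 for NADPH supply (5 genes) and -0.02 for the glycerolipid steps (7 genes). These medians moved with single arrays or the filter: chain synthesis was -0.73 without Burn-CLP 3, and the regulators were -0.64 without Burn-CLP 2. Desaturation was -0.80 without Burn-CLP 2, and the glycerolipid steps were -0.25 without Sham-CLP 3, -0.18 without Burn-CLP 3 and -0.27 over probe sets above the floor on all arrays. The medians between Sham-CLP and Sham-Sham were 1.16 for citrate and acetyl-CoA supply and 0.78 for chain synthesis, but -0.15 for NADPH supply and -0.22 for desaturation, the last of which was 0.08 without Sham-Sham 3. Between Burn-CLP and Sham-Sham they were -1.11 for desaturation, -0.63 for NADPH supply and -0.12 for both chain synthesis and acetyl-CoA supply. Without Burn-CLP 2 the last 2 were 0.47 for chain synthesis and 0.15 for acetyl-CoA supply. With so few genes in a role, these medians describe the members and were not tested. The other genes of the pathway, described below, had different medians between Burn-CLP and Sham-CLP. These were -0.05 for citrate and acetyl-CoA supply (6 genes) and -0.02 for desaturation (5 genes). The regulators had -0.01 (16 genes), elongation 0.05 (3 genes) and activation -0.16 (5 genes). Chain synthesis had -0.15 (5 genes), NADPH supply -0.05 (7 genes) and the glycerolipid steps 0.23 (9 genes).

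Other genes of the pathway came from a list of 73, of which 57 were matched, with 69 tested probe sets for 56 genes. 1 of the 69 was called between Burn-CLP and Sham-Sham, beside 0.746% of all tested probe sets, and none was called by limma in the other comparisons. An unadjusted p under 0.05 was reached by 23 of 69 (33.3%) between Burn-CLP and Sham-Sham, 14 higher and 9 lower, against 19.9% of all tested probe sets. It was reached by 9 of 69 (13%) between Sham-CLP and Sham-Sham, 8 higher and 1 lower. That is near the 11.7% of all, 5.83% higher and 5.9% lower. Between Burn-CLP and Sham-CLP it was reached by 12 of 69 (17.4%), 7 higher and 5 lower. Of all tested probe sets 9.09% reached it there, 3.9% higher and 5.19% lower. The median of the 56 genes in that comparison was -0.033, with 53.6% of them lower, against 48.1% of all named genes. Lpin1, a phosphatidate phosphatase that makes diacylglycerol, rose in Burn-CLP. Its signals were 6147, 8536 and 3395 in Burn-CLP, 2667, 2252 and 1200.4 in Sham-CLP and 949, 865 and 905 in Sham-Sham, with no overlap between any groups. Burn-CLP was 6.21-fold above Sham-Sham (log2 2.63 ± 0.37, adjusted p = 0.0221) and 2.91-fold above Sham-CLP (1.54 ± 0.37, adjusted p = 0.327). The call against Sham-Sham was lost when Sham-Sham 1 (log2 2.68, adjusted p = 0.0606), Sham-Sham 2 (0.0657), Burn-CLP 1 (0.076) or Burn-CLP 2 (0.0865) was left out. It was lost too with no filter (0.0556) and in a fit of those groups only (0.0528).

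Among the rest with the smallest p, Gk, the glycerol kinase, had 427, 527 and 451 in Burn-CLP, 723, 707 and 1569 in Sham-CLP and 1017, 1419.7 and 1892 in Sham-Sham. Burn-CLP was below both other groups on every array, by -1.58 ± 0.33 from Sham-Sham (adjusted p = 0.0609). Mdh1, the cytosolic malate dehydrogenase, and Insig1, which holds the SREBP complex in the endoplasmic reticulum, were above Sham-Sham on every Burn-CLP array, by 0.83 ± 0.18 (adjusted p = 0.0649) and 1.34 ± 0.31 (adjusted p = 0.0734) on the log2 scale. Insig1 was also above Sham-Sham on every Sham-CLP array, by 1.02 ± 0.31 (adjusted p = 0.311), while Insig2, its relative, was below on every Sham-CLP array, by -0.82 ± 0.27 (adjusted p = 0.328).

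Cyb5r3, the cytochrome b5 reductase that passes electrons to the desaturases, had 2419, 2538 and 3148 in Burn-CLP, 5538, 6165 and 5784 in Sham-CLP and 3399, 2822 and 3185 in Sham-Sham. Sham-CLP stood above the other 6 arrays, by 0.90 ± 0.17 over Sham-Sham (adjusted p = 0.154), and Burn-CLP was -1.12 ± 0.17 from Sham-CLP on the log2 scale (adjusted p = 0.131). Acsl5, another acyl-CoA ligase, was likewise highest in Sham-CLP, by 0.54 ± 0.18 over Sham-Sham (adjusted p = 0.33). Trib3, a stress-induced pseudokinase, was higher in Burn-CLP than in Sham-CLP on every array in all 3 of its probe sets. The difference was 1.74 ± 0.41 (adjusted p = 0.327) and 2.35 ± 0.57 (adjusted p = 0.333) on the log2 scale in the 2 with the smallest p.

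Markers of other cells were read beside these results. The 5 measured of 8 neutrophil markers summed to 656 to 1573.2 in Burn-CLP, 500.6 to 717.9 in Sham-CLP and 390.9 to 654.9 in Sham-Sham, and 1 of the 4 tested, S100a9, rose in Burn-CLP against Sham-Sham (log2 2.80 ± 0.41, adjusted p = 0.0239), with 2 Sham-Sham arrays at the floor. The 7 of 8 stellate cell and fibroblast markers summed to 3765.7 to 5257.6 in Burn-CLP, 3662.2 to 5394.1 in Sham-CLP and 5162.9 to 5881 in Sham-Sham, while 1 of them, Dcn, rose in Burn-CLP against Sham-Sham (log2 1.48 ± 0.21, adjusted p = 0.0239), against a median of -0.28 over the 7. Of 8 adipocyte markers, 5 were measured, summing to 17484 to 20124.6 in Burn-CLP, 12874.3 to 18289.7 in Sham-CLP and 16947.6 to 20582.1 in Sham-Sham, most of it from Pck1, which liver also expresses, and none passed. The adipocyte genes Lep and Plin1 reached at most 87.7 and 147.7 in Burn-CLP, 49.9 and 123.5 in Sham-CLP, and 60.2 and 172.4 in Sham-Sham. The 3 of 6 blood markers measured, mostly Hbb, summed to 9806.3 to 11819.6 in Burn-CLP, 11334.3 to 12517.1 in Sham-CLP and 12602.2 to 15826.5 in Sham-Sham, with no overlap between Burn-CLP and Sham-Sham, and none passed. Endothelial markers (4 of 7 measured) had a median log2 difference of 0.56 between Burn-CLP and Sham-Sham, but the brightest of them, Kdr, went the other way. Kdr had 740.9, 723.1 and 1319.4 in Burn-CLP and 1768.1, 1363.9 and 1425.6 in Sham-Sham, without overlap. Kupffer cell and macrophage markers (3 of 8) had a median of 0.33 between Burn-CLP and Sham-Sham. The summed signals of both cell types overlapped, and no marker of either was called. Lymphocyte (6 of 9) and bile duct cell (4 of 6) markers had medians of 0.04 and 0.10 between these groups, and none was called. Between Burn-CLP and Sham-CLP the lymphocyte sums did not overlap, at 1027.4 to 1133.7 and 863 to 920.1, with a median of 0.28. The neutrophil median there was 0.59, with 0.41 for Kupffer cell and macrophage, 0.37 for endothelial and 0.33 for stellate cell markers. Hepatocyte and blood markers had -0.06 and -0.15, and no marker was called in this comparison. The part of other cells in the differences of the lipogenic genes was not tested.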

How the data were processed

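Total RNA of rat liver was measured on 9 one-colour arrays, 3 per group, for 15923 probe sets. The authors deposited linear intensity values, 1 per probe set and array. Which software turned scans into values is not stated in the labels or the file header. With 2% trimmed from each end, the array means were 500.14 to 500.17, so the arrays had been scaled. There is no read depth, and the number of arrays limits the precision.

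Control probe sets (57) were left out. Intensities were quantile normalized, values below the 20th percentile of all values (64.3) were set to it, and log2 was taken. The 13535 probe sets above that floor on at least 3 arrays were tested with limma 3.58.1 in R 4.3.3 (lmFit and eBayes, 1 fit of 9 arrays, Benjamini-Hochberg). The procedure was run on simulated data with normal noise, only to check that fitted log2 differences lay close to those put in. The share of those differences that was called was not part of the check. Symbols came from the platform annotation, updated to GRCr8 RefSeq names, with 12783 probe sets having 1 symbol, 312 several and 2771 none. Probe sets with several symbols were not used, and genes of 1 family may cross-hybridize.

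The members, lists and markers were chosen with earlier results of these data known. Full statistics are given for called members and for the member with the smallest p in each role and comparison, and of the other pathway genes for those called and up to 4 per comparison with the smallest p. Other members are given as values. The promoter printed whole is that of the member with a match to TCACNCCAC or CACGTG, and the shorter stretches were added for their CCAAT matches. The alternatives were the deposited scaling, other floors and filters, a pseudocount of 50, other variance settings, the replicate block and leaving out each array.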

Additional observations from a re-analysis of the deposited data

How the results depend on the processing

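The number of member probe sets called between Burn-CLP and Sham-Sham was 1 and rested on the setting. It was 0 with a floor at the 10th percentile, with no filter, in a fit of the compared groups only and with the replicate number as a block, 2 with a pseudocount in place of the floor, with a filter on all arrays and with trend and robust eBayes, and 3 with array weights. Of all probe sets, 0.746% were called in the chosen setting, and 0.354%, 0.637%, 0.096%, 0.436%, 0.975%, 1.23%, 2.34% and 1.94% under these settings in the same order. The members' count was 0 to 3 with 1 array left out, where 0.142% to 4.8% of all were called. Between Sham-CLP and Sham-Sham the count was 1 with array weights, beside 0.51% of all. With 1 array left out it was 0 to 2 there, the 2 without Sham-Sham 3, beside 2.58% of all. Between Burn-CLP and Sham-CLP it was 0 to 1 with 1 array left out, the 1 without Burn-CLP 3, beside 0.268% of all. The F test called 2 members with trend and robust eBayes or with array weights, and 0 to 1 with 1 array left out. How many of all probe sets the F test called in those settings was not counted, so its member counts have no background beside them. The labels' numbers were not taken to pair the arrays, because deviations of same-numbered arrays from their group means correlated between -0.026 and 0.081 only. As a hint from the data, an array correlated best with its own number in 13 of 18 comparisons with another group. Its own number was 1 of 3 candidates each time, and the comparisons are not independent, since each pair of arrays enters in both directions. Whether the numbers mark pairs was not tested. The replicate block gave Gpd1 an adjusted p of 0.0744 between Burn-CLP and Sham-Sham, and called 59 probe sets in all between Burn-CLP and Sham-Sham in place of 101.

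The median log2 difference of the genes was -0.691 between Burn-CLP and Sham-CLP and 0.17 between Sham-CLP and Sham-Sham over all their probe sets. With 1 array left out it lay between -0.666 and -0.396 for Burn-CLP against Sham-CLP, between -0.482 and 0.034 for Burn-CLP against Sham-Sham and between 0.014 and 0.104 for Sham-CLP against Sham-Sham. The deposited scaling moved the median of all genes to 0.101 in Burn-CLP against Sham-CLP, where the members' median was -0.429, or -0.530 relative to all genes. Over all probe sets the calls ranged from 13 to 645 for Burn-CLP against Sham-Sham (101 in the chosen setting), from 4 to 347 for Sham-CLP against Sham-Sham (8) and from 0 to 47 for Burn-CLP against Sham-CLP (2).

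Of 646 alternatives over 36 results on named genes, 602 kept their direction and side of the threshold, 23 newly passed, 17 no longer passed and 4 turned. All losses fell on the only called results, both between Burn-CLP and Sham-Sham. Gpd1 lost its call in 11 of 18 alternatives and Lpin1 in 6 of 18. The other named results were not called in the chosen setting, so most of those that kept their side stayed uncalled. Acss2 in Burn-CLP against Sham-Sham was -0.052 without Sham-Sham 2 and -0.024 without Burn-CLP 3 (range -0.052 to 0.427 with 1 array left out), and Scd in Sham-CLP against Sham-Sham was 0.08 without Sham-Sham 3 and 0.03 without Sham-CLP 2 (range -1.041 to 0.08). The cause of these shifts was not tested. For 1 gene, exact permutation of 3 arrays against 3 gives no two-sided p below 0.1.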
